A study of Mus musculus with 4 samples.

Results

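The mitochondrial ribosomal protein genes were taken as all gene names on the arrays that read Mrpl or Mrps followed by a digit, pseudogene names left out. They comprised 76 of the 31660 gene names: 47 Mrpl genes, named for the large subunit, and 29 Mrps genes, named for the small subunit. They were read by 101 probes on 128 spots per array. Of the 76 genes, 75 were well above background on all 4 arrays and were tested, 46 of them Mrpl and 29 Mrps. Mrpl21 was not well above background on any array. Names do not always follow structure: Mrps18a and Mrps30 are proteins of the large subunit, and Mrps36 is a component of the 2-oxoglutarate dehydrogenase complex and not a ribosomal subunit.

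Mitochondrial ribosomes stand in the mitochondrial matrix and make the few proteins encoded by mitochondrial DNA, all of them core subunits of the respiratory chain and the ATP synthase. Their RNA comes from mitochondrial DNA, but every one of their proteins is encoded in the nucleus, made in the cytosol and imported. Some of these proteins descend from ribosomal proteins of bacteria, and others were added in mitochondria. Dividing cells of the bone marrow have to make new mitochondria as they multiply.

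RNA came from preproB cells, an early stage of the B lineage. They were sorted from C57BL/6 marrow by the absence of lineage markers, BP1 and CD24 and the presence of B220 and CD43. The control group was Enh(f/f), with loxP sites around an enhancer 37 kb from Cebpa, which encodes the myeloid regulator C/EBPα, and the EnhDel group was Enh(f/f);Mx1-Cre, in which an interferon-inducible Cre removes that enhancer. Both groups received 3 doses of pIpC, an interferon-inducing RNA, 5 weeks before the marrow was collected. The labels give control replicate 1 as female and 26 weeks old, and control replicate 2 and both EnhDel replicates as male and 24 weeks old. Only the EnhDel group carried Cre, so loss of the enhancer and presence of Cre cannot be told apart. Mx1-Cre acts in many tissues and not in preproB cells alone. The labels do not say whether a sample pooled several animals, and p-values here measure the spread between these 2 samples per group.

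Between 59.6% and 64.9% of 39429 probes were well above background on each array, no spot was saturated, and the number of arrays limits the precision. Cebpa signal, the check of the group labels, was 1271 and 927 in the controls against 125 and 287 in EnhDel, a log2 difference of -2.42 ± 0.45 (SE, n = 2 per group) with an adjusted p of 0.248 in limma. Sex-linked genes, looked at after the data were seen, went against the labels of 2 samples. Xist, transcribed from the inactive X chromosome of females, was not well above background on control replicate 1 and had a signal of 1551 on EnhDel replicate 2. Y-linked Ddx3y had signals of 3116 and 3474 in the controls, 3624 on EnhDel replicate 1 and 1560 on EnhDel replicate 2. The library labelled control replicate 1 thus lacked Xist and carried Y-linked RNA, and the library labelled EnhDel replicate 2 carried both. The main results are given below with and without these libraries. Of 10 B lineage markers, 9 were tested and Pax5 was not, and the summed linear signal of the 9, relative to each array's 75th percentile, was 43.2 and 55.6 in the controls and 22.8 and 15.2 in EnhDel. Cd79b, which changed least (log2 difference -0.16), was the brightest of the 9 on both EnhDel arrays and weighs most in those sums. The median log2 difference of the 9 was -2.35, or -1.40 without EnhDel replicate 2 and -2.64 without control replicate 1. All 9 had both EnhDel values below both control values, where 16.6% of all genes tested did so. Of the gate's genes, Ptprc (B220), Spn (CD43) and Cd24a were tested, and Enpep (BP1) was not. In log2 relative to the 75th percentile, Cd24a read 2.24 and 2.48 in the controls and 2.18 and 0.88 in EnhDel. Ptprc read 1.87 and 2.00 against 1.98 and 2.85, and Spn 5.32 and 5.33 against 5.21 and 5.18. The arrays measured RNA and not the surface proteins sorted on. The 8 plasmacytoid dendritic cell markers, all tested, had sums of 939 and 852 in the controls and 922 and 883 in EnhDel. Sums over different genes and probes cannot be compared between lists. The share of either cell type among the sorted cells was not tested.

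The promoters of 5 genes are shown, all of which hold letters known from regulators of mitochondrial genes. Mrpl43 and Mrpl51 were picked for their values, being among the 10 lower genes described below. Mrpl17 and Mrps18a were picked from genes whose promoter windows, longer than the stretches shown and described below, hold letters of 2 regulators. Mrpl33 was picked on both grounds. Mrpl22, Mrpl36, Mrpl37, Mrps18b, Mrps18c and Mrps27 also hold letters of 2 regulators in their windows and are not shown. Mrpl27 and Mrpl42, of the 10 lower genes, hold letters of 1 regulator each and are not shown either. Sequences are from RefSeq on build GRCm38.p6, run 5′ to 3′ on the gene's own strand, and hold 100 bases before the transcription start and the first 10 bases after it. Capitals mark NRF1 letters (GCATGCG) or ETS letters (CCGGAAG) on either strand. The stretches shown carry marked NRF1 letters alone in Mrpl17 and marked ETS letters alone in Mrps18a.
Mrpl33, chr5:31613851-31613960, plus strand: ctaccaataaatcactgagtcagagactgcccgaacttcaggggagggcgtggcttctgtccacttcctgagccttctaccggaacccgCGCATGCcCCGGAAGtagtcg
Mrpl43, chr19:45006433-45006542, minus strand: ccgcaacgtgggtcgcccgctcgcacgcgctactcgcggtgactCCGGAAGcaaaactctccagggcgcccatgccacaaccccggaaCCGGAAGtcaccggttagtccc
Mrpl51, chr6:125192100-125192209, plus strand: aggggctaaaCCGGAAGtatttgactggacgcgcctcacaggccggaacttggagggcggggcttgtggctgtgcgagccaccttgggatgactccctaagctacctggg
Mrpl17, chr7:105811078-105811187, minus strand: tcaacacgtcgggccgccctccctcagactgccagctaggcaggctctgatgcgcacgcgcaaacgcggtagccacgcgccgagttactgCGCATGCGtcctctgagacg
Mrps18a, chr17:46110904-46111013, plus strand: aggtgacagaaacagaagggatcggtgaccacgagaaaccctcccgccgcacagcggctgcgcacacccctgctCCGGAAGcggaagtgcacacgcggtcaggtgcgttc
In Mrpl33 the 2 motifs stood next to each other, the first of them 11 bases before the start. In Mrpl43 the ETS letters appeared at 2 places, and in Mrpl17 the NRF1 letters read on both strands. Mrpl17, chosen here for its sequence and not for its values, had a log2 difference between EnhDel and control of -0.02 ± 0.15 (SE).

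In the EnhDel group, expression of these genes lay close to that of the controls. The 75 log2 differences (EnhDel minus control) ran from -0.30 for Mrps25 to 0.32 for Mrps6, with a median of -0.09, and 58 were below 0 and 17 above, against a median of 0.06 and 41.5% below 0 for all 19391 genes tested. The 7432 genes whose mean level lay in the range of the members' 5th to 95th percentile had a median of -0.01, with 52.0% below 0. The members' median minus that of all genes was thus -0.15, and minus that of genes at like levels -0.08. None of the 75 passed an adjusted p of 0.05 in limma (Benjamini-Hochberg), where 0% of all genes passed. None had an unadjusted p under 0.05 in limma in either direction, where 4.16% of all genes were lower and 6.83% were higher by that rule. The SD of the 75 log2 differences was 0.11, against 0.35 over genes at like levels and 0.55 over all genes tested. No member was 0.5 or more apart on the log2 scale, a size that 20.1% of all genes reached.

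**Figure D1:**
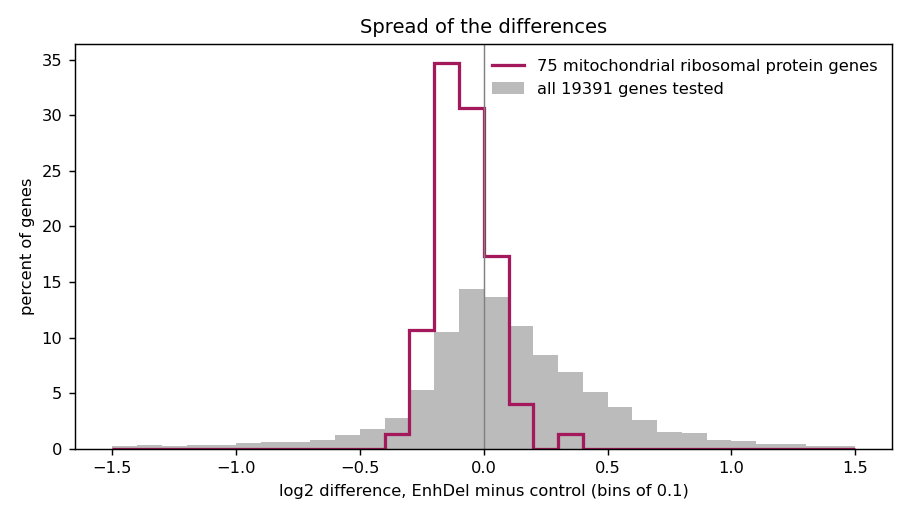
Log2 difference between the EnhDel and control groups (x axis, bins of 0.1) against the percent of genes in each bin (y axis), for all 19391 genes tested (grey bars) and the 75 mitochondrial ribosomal protein genes (outline). All 75 lie between -0.4 and 0.4, a range that holds 72.9% of all genes, and 2.77% of all genes lie beyond the plotted limits of -1.5 and 1.5.

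The precision was enough to bound most of these genes. The SE of a log2 difference ran from 0.14 to 0.34, with a median of 0.17. All 75 of the 95% intervals included 0, and 73 excluded a 2-fold change, as did 67.5% of all genes tested. The intervals of Mrps25, a small subunit protein added in mitochondria (-1.14 to 0.53), and of Mrps6, the counterpart of bacterial S6 (-0.60 to 1.24), held a 2-fold change. The lowest adjusted p among the members was 0.580 in limma, for Mrpl28. A p that missed the threshold does not show that a level was the same in both groups, and the intervals are the limit of what was measured.

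**Figure D2:**
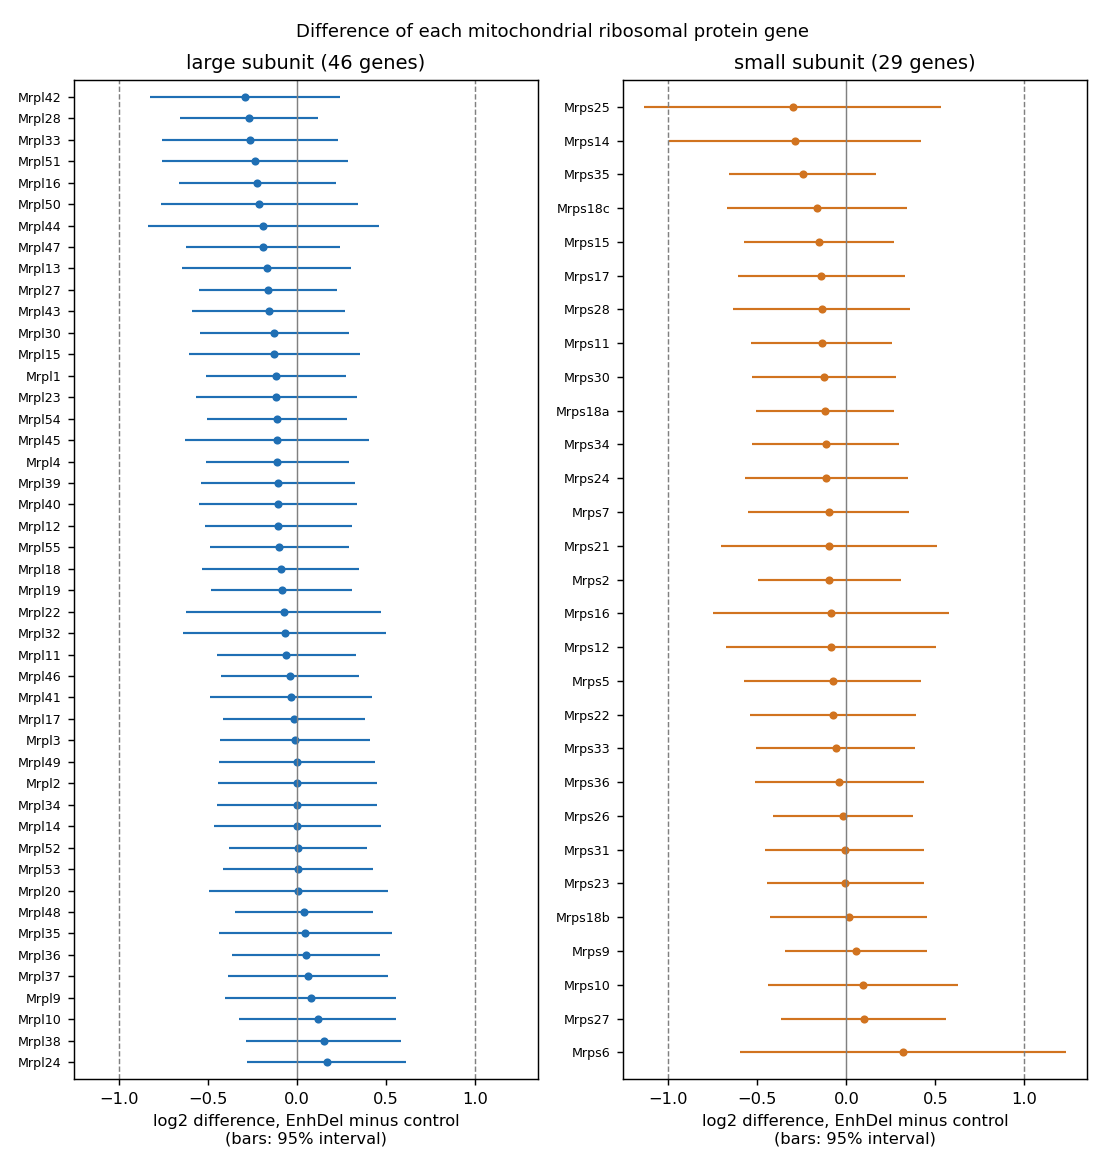
Log2 difference between EnhDel and control (x axis) of each of the 46 large and 29 small subunit genes tested (rows, ordered by difference), with points for the estimate and bars for limma's 95% interval. Dashed lines mark a 2-fold change, and every bar crosses 0, with those of Mrps25 and Mrps6 also crossing a dashed line.

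Large and small subunit genes had nearly the same median. The median log2 difference was -0.09 for the 46 large subunit genes, of which 34 were below 0, and -0.10 for the 29 small subunit genes, of which 24 were below 0. The large subunit median minus the small subunit median was 0.005, and on single arrays, each gene taken relative to its control mean, that gap was -0.004, 0.004, -0.020 and 0.018 on control replicates 1 and 2 and EnhDel replicates 1 and 2. With Mrps18a and Mrps30 counted in the large subunit and Mrps36 left out, the medians were -0.10 for 48 genes and -0.09 for 26.

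The origin of the proteins was compared next. In the large subunit, the 28 tested counterparts of bacterial proteins had a median log2 difference of -0.08 and the 18 proteins added in mitochondria of -0.10. In the small subunit, the 15 counterparts of bacterial proteins had a median of -0.10 and the 11 added in mitochondria of -0.06. The 4 medians thus lay between -0.10 and -0.06, and each class held genes on both sides of 0. Without EnhDel replicate 2, in the order given, the 4 medians were -0.03, -0.003, 0.005 and 0.05, and without control replicate 1 they were -0.06, -0.06, -0.07 and -0.01.

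The 2 EnhDel arrays did not agree on this small shift. Relative to the mean of the controls, the 75 genes had a median log2 value of 0.003 in EnhDel replicate 1 and -0.17 in EnhDel replicate 2, while the controls stood at 0.03 and -0.03. EnhDel replicate 2 had the lowest value of all 4 arrays for 58 of 75 genes (77.3%), against 34.6% of all genes tested and 47.4% of genes at like levels. The SD of the log2 difference between the EnhDel arrays was 0.24 over the 75 genes, against 0.10 between the control arrays. Genes at like levels showed the same order, at 0.44 and 0.22, as did all genes, at 0.61 and 0.33. Both subunits showed this pattern: on EnhDel replicate 2 the large subunit median was -0.16 and the small subunit median -0.17, and on EnhDel replicate 1 they were -0.01 and 0.005. Without EnhDel replicate 2 the median of the 75 was 0.003 and 37 were below 0. Without EnhDel replicate 1 the median was -0.17 and 7 genes had an unadjusted p under 0.05 in limma, all lower (Mrps14, Mrps25, Mrpl42, Mrpl44, Mrpl33, Mrpl51 and Mrpl50). That is 9.33% of the 75, where 13.2% of all genes were lower and 25.04% higher in the same fit, so it is no result about the members, and none passed the adjusted threshold. The lone EnhDel array was assumed there to vary as the controls did. Without control replicate 1 the median was -0.06.

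**Figure D3:**
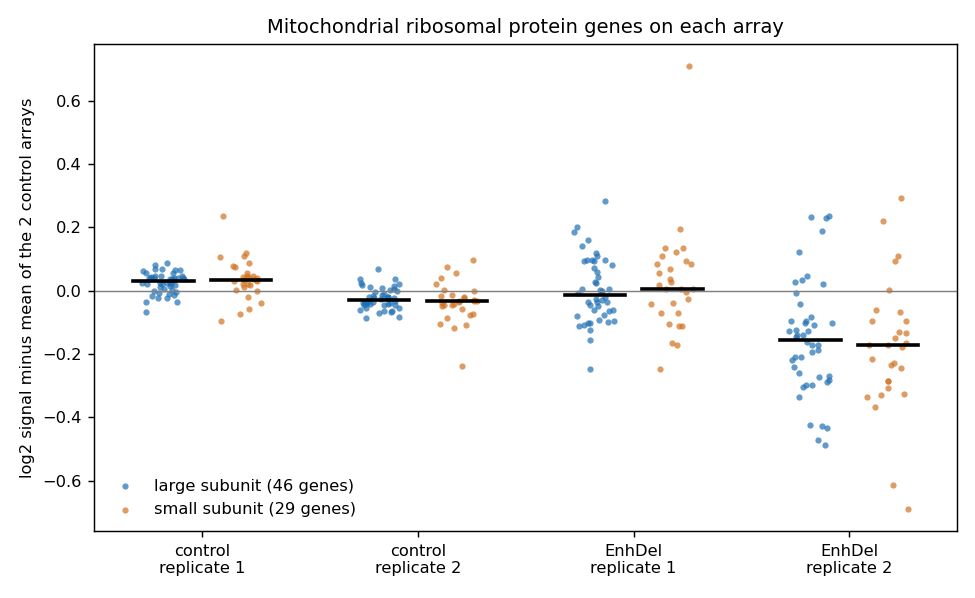
Log2 signal of each gene minus its mean on the 2 control arrays (y axis) on each of the 4 arrays (x axis), with points for large (46) and small (29) subunit genes and black bars for the medians. The medians of both subunits lie near 0 on EnhDel replicate 1 and at -0.16 and -0.17 on EnhDel replicate 2.

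The same array was also lowest for other housekeeping sets and for cycling cells. Cytoplasmic ribosomal protein genes (84 tested) had a median log2 difference of -0.12, at 0.03 on EnhDel replicate 1 and -0.29 on EnhDel replicate 2. Nuclear genes of oxidative phosphorylation (81 tested) had a median of -0.12, at 0.03 and -0.28 on the same arrays. Markers of S phase (15 of 15 tested) stood at -0.64 and -1.53 on EnhDel replicates 1 and 2, with summed signals of 74.9 and 81.8 in the controls and 57.8 and 32.8 in EnhDel. Markers of mitosis (13 of 13 tested) stood at -0.73 and -2.35, with sums of 19.9 and 29.7 in the controls and 16.9 and 5.05 in EnhDel. Without control replicate 1 the median log2 difference was -1.17 for S phase and -1.69 for mitosis, against -1.12 and -1.45 with it. Their part in the shift of the mitochondrial ribosomal protein genes was not tested, nor was that of the Xist signal on EnhDel replicate 2. In RNA from a sorted population, a smaller share of cells with a transcript and less of it per cell cannot be told apart.

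The groups did not overlap for 26 of the 75 genes. In 24 (32%) both EnhDel values were below both control values, where 16.6% of all genes tested did so, and in 2 (2.67%) both were above, where 27.2% of all genes did so. Of the 7432 genes at like levels, 1477 were lower and 1491 higher without overlap. By subunit, 17 of 46 large (37.0%) and 7 of 29 small subunit genes (24.1%) were lower without overlap. Without control replicate 1 the count lower without overlap was 27 (36.0%, against 21.6% of all genes), and without EnhDel replicate 2 it was 32 (42.7%, against 30.6%). The 10 with the smallest p among the 24 and both genes of the higher group are described next. Values are log2 signals relative to each array's 75th percentile, given for control replicates 1 and 2 and then EnhDel replicates 1 and 2.

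Mrpl28 (NM_024227; probe at chr17:26261526-26261585 in build mm9), the counterpart of bacterial L28, read 0.72, 0.68, 0.45 and 0.41. Its EnhDel values lay together and apart from the controls, and the difference was -0.27 ± 0.14 (SE), with an interval of -0.66 to 0.12. It stayed between -0.45 and -0.25 under all 16 ways of processing the data, leaving out single arrays included. Mrps35, a small subunit protein added in mitochondria and read by 10 spots of 1 probe, read 1.26, 1.26, 1.09 and 0.93, a difference of -0.25 ± 0.15 (SE). Both EnhDel arrays lay below 2 nearly equal controls. The Mrps35 probe crosses an exon boundary, since its 60 bases span 9121 bases of chromosome 6 in mm9, so it reads spliced RNA. Probes of that kind read 10 of the 75 genes, and 2 of the genes described here are shown with theirs, on the transcript's strand.
Mrps35, chr6:147009999-147019119: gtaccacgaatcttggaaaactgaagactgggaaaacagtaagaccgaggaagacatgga
Mrpl47, chr3:32629104-32630111: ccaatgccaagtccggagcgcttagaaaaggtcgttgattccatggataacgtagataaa

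Mrpl42, added in mitochondria, read 0.72, 0.60, 0.56 and 0.17. Its EnhDel replicate 1 lay just under the controls and EnhDel replicate 2 well under them, for a difference of -0.29 ± 0.20 (SE). Mrpl33, the counterpart of bacterial L33, whose promoter is shown above, read 4.82, 4.75, 4.68 and 4.35, a difference of -0.27 ± 0.18 (SE). Mrpl51, added in mitochondria, read 4.26, 4.18, 4.17 and 3.80, a difference of -0.24 ± 0.19 (SE). In these 3 genes EnhDel replicate 2 carried most of the difference, and without that array it was -0.10 for Mrpl42, -0.10 for Mrpl33 and -0.05 for Mrpl51.

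Mrpl16, the counterpart of bacterial L16, which helps to form the site where transfer RNAs are accommodated, read 2.56, 2.47, 2.40 and 2.18, a difference of -0.22 ± 0.16 (SE). Mrpl47, the counterpart of bacterial L29, read 0.89, 0.76, 0.72 and 0.55 on its brightest probe, a difference of -0.19 ± 0.16 (SE), and both of its other probes were also below 0. Mrpl27, the counterpart of bacterial L27, which reaches towards the catalytic centre, read 2.73, 2.74, 2.58 and 2.56, a difference of -0.16 ± 0.14 (SE). On the brightest probe, Mrpl27 is the one of these 3 in which both EnhDel arrays gave nearly the same value. The other Mrpl27 probe read 1.59, 1.68, 1.41 and 1.64, a difference of -0.11 with overlap of the groups. Mrpl43, added in mitochondria, read 3.89, 3.82, 3.79 and 3.60, a difference of -0.16 ± 0.16 (SE). Mrps15, the counterpart of bacterial S15, read 1.57, 1.47, 1.45 and 1.28, a difference of -0.15 ± 0.16 (SE). In both, EnhDel replicate 1 was within 0.03 of the lower control. The other probe of Mrpl43 gave a difference of -0.05, with overlap of the groups. The adjusted p of these 10 genes ran from 0.580 to 0.762 in limma.

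All of these 10 genes but Mrps15 exceeded their SE, and all 10 kept their sign under each of the 16 ways of processing. The sign could not turn when 1 array was left out, because the groups did not overlap on the reported probes. The variance models and the block leave a difference unchanged, so these settings could not turn it either. Mrpl24, the counterpart of bacterial L24, read 4.22, 4.15, 4.47 and 4.23, a difference of 0.17 ± 0.17 (SE), which was -0.01 with median scaling and -0.10 with the normexp background correction. Its EnhDel replicate 2 was within 0.01 of control replicate 1. Mrpl48 read 2.34, 2.36, 2.39 and 2.38, a difference of 0.04 ± 0.14 (SE), which was -0.14 and -0.19 under the same alternatives. Median scaling lowers every gene by the same amount, and with quantile normalization, cyclic loess and the repaired normexp (6 extreme local backgrounds set to the array's median) both kept their sign, at 0.16 to 0.22 for Mrpl24 and 0.02 to 0.06 for Mrpl48.

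Structural groups within the large subunit gave no exception to the narrow band. In the stalk, which recruits translation factors, Mrpl10 read -0.02, 0.02, 0.00 and 0.23, and its difference of 0.11 was -0.06 with median scaling. Mrpl12, which also binds the mitochondrial RNA polymerase, read 2.50, 2.45, 2.45 and 2.29. Mrpl11, at the base of the stalk, read 2.69, 2.70, 2.67 and 2.60. Mrpl10 was highest and Mrpl11 and Mrpl12 were lowest on EnhDel replicate 2, for differences of -0.06 in Mrpl11 and -0.11 in Mrpl12.

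Around the tunnel through which new proteins leave, Mrpl22 read 2.95, 2.78, 2.98 and 2.59. Mrpl23 read 3.69, 3.61, 3.65 and 3.40. Mrpl45, which holds the ribosome at the inner membrane, read 1.85, 1.77, 1.88 and 1.51. These 3 were lowest on EnhDel replicate 2 and at or near the control values on EnhDel replicate 1. The fourth gene of this group, Mrpl24, described above, was higher without overlap and stood furthest above the controls on EnhDel replicate 1. Their differences were -0.08, -0.12 and -0.11 in that order, and without EnhDel replicate 2 those of Mrpl22, Mrpl23 and Mrpl45 were above 0, at 0.12, 0.005 and 0.07.

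In the central protuberance, where the large subunit faces the small one, Mrpl18 read 2.88, 2.84, 2.88 and 2.65. Mrpl40 read 2.32, 2.24, 2.28 and 2.06, and its value on EnhDel replicate 1 lay between the controls. Mrpl46 read 0.61, 0.63, 0.58 and 0.57. Mrpl38 read -0.01, -0.15, -0.02 and 0.16. Mrpl38 was the one of these 4 that was highest on EnhDel replicate 2, with a difference of 0.15 that was -0.03 with median scaling. The differences of Mrpl18, Mrpl40 and Mrpl46 were -0.09, -0.11 and -0.04.

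The 3 proteins related to bacterial S18 sit in different places: Mrps18c in the small subunit at the bacterial position, Mrps18b elsewhere in the small subunit and Mrps18a in the large one. Mrps18a read 2.10, 2.06, 1.97 and 1.95, a difference of -0.12 ± 0.14 (SE) without overlap. Mrps18b read 2.46, 2.38, 2.54 and 2.32, a difference of 0.01 ± 0.16 (SE). Mrps18c read 2.86, 2.97, 2.92 and 2.58, a difference of -0.17 ± 0.19 (SE). In Mrps18b and Mrps18c the groups overlapped, and the sign of Mrps18b turned with median scaling, at -0.16.

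The widest disagreement between EnhDel arrays was in 3 small subunit genes, singled out after their values were seen. Mrps6 read 2.49, 2.02, 2.96 and 2.18, so that replicate 1 stood above replicate 2 in both groups, and its difference of 0.32 ± 0.34 (SE) was 0.71 without EnhDel replicate 2, with an unadjusted p of 0.0478 and an adjusted p of 0.323 in limma. Mrps25 read 2.07, 1.84, 2.04 and 1.26, a difference of -0.30 ± 0.31 (SE). Mrps14, the counterpart of bacterial S14, read 2.54, 2.48, 2.55 and 1.90, a difference of -0.29 ± 0.26 (SE). In Mrps25 and Mrps14, EnhDel replicate 1 was within 0.01 of a control or between the controls, and EnhDel replicate 2 alone lay lower.

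Of the 75 genes, 24 had more than 1 tested probe, and in 9 of them the probes differed in direction (Mrpl39, Mrpl4, Mrpl40, Mrpl41, Mrps2, Mrps25, Mrps26, Mrps33 and Mrps7). The low value of Mrps25 on EnhDel replicate 2 belonged to 1 of its probes: the dimmer probe read -0.59, -0.65, -0.56 and -0.67, a difference of 0.01. The dimmer probe of Mrpl41, a protein of the large subunit, read -1.74, -1.99, -1.66 and -0.90, a difference of 0.58 with an interval of -0.23 to 1.40, where the brighter probe gave -0.03. The dimmer Mrpl40 probe was high on EnhDel replicate 1 alone, at 2.07, 2.09, 2.65 and 1.85. In Mrpl39 and Mrps2 the brighter probe gave -0.11 and -0.10 and the dimmer one 0.26 each. Signals of these dimmer probes were low, at 26 to 33 in Mrpl39 and 57 to 93 in Mrps2. The lowest signals well above background were 12.2 to 14.4. In Mrpl4, Mrps7, Mrps26 and Mrps33 the probes differed by less than 0.2. Which of a gene's probes gave its transcript level was not tested.

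**Figure D4:**
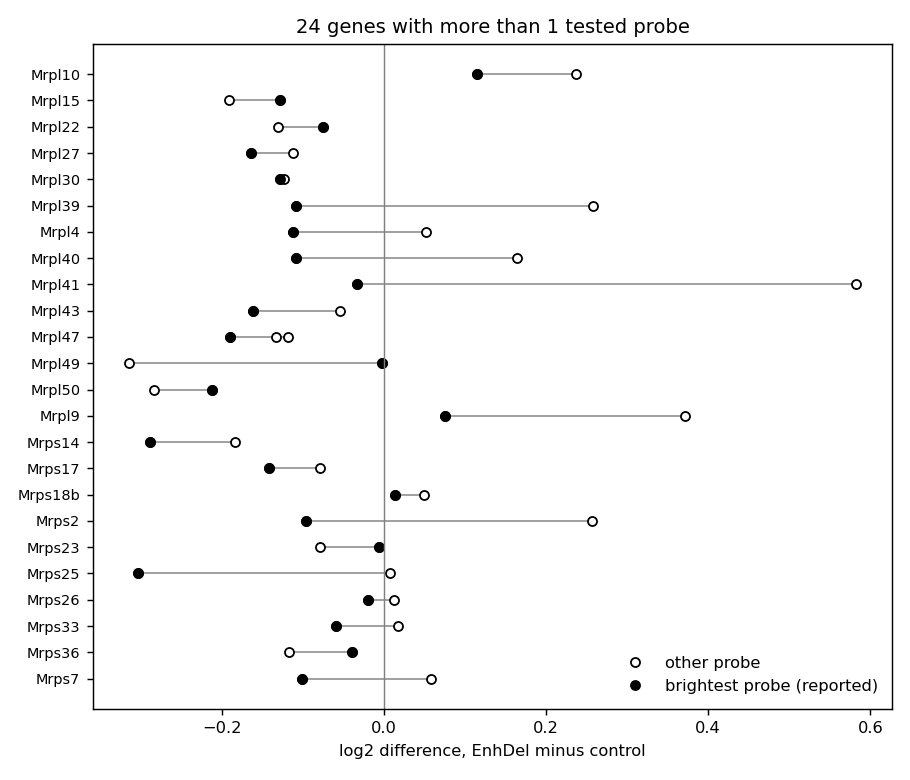
Log2 difference between EnhDel and control (x axis) for each tested probe of the 24 genes with more than 1 (rows). Filled points are the brightest probe, whose value is reported, open points the others, and lines join probes of 1 gene, the longest being that of Mrpl41 from -0.03 to 0.58.

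Promoter windows of 300 bases (250 before the start and 50 after) were held by the RefSeq table for 67 of the 76 genes. The ETS letters CCGGAAG, bound by factors such as GABP, stood on either strand in 24 of the 67 (35.8%), against 9.93% of 27025 genes in the table. NRF1 letters (GCATGCG) stood in 8 (11.9% against 4.01%), and YY1 letters (GATGGCG), which can overlap a start codon, in 8 (11.9% against 4.04%). The E-box CACGTG, which MYC can bind, stood in 5 (7.46% against 8.09%). Of the 8 genes with NRF1 letters, 7 were large subunit genes. A match describes letters and is not shown to be a bound site. The median log2 difference was -0.04 for the 8 genes with NRF1 letters, -0.07 for the 23 tested genes with ETS letters, -0.03 for the 8 with YY1 letters, 0.01 for the 5 with an E-box and -0.11 for the 31 with none of these. Without EnhDel replicate 2 these medians were -0.01, 0.04, -0.04, 0.005 and 0.003, and without control replicate 1 they were 0.01, 0.01, -0.02, 0.02 and -0.08.

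Many of these genes start back to back with a neighbour: 25 of 67 (37.3%) had a start on the opposite strand within 1000 bases upstream, against 12.2% of all genes in the table. In 1 case both partners were members. Mrpl46 and Mrps11, a large and a small subunit gene, start 42 bases apart and are separated by the sequence below (GRCm38.p6, plus strand), which holds none of the 4 motifs.
Mrpl46 and Mrps11, chr7:78783090-78783130: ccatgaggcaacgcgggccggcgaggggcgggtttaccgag
Mrps11 read -0.19, -0.11, -0.26 and -0.32, and the differences of Mrpl46 and Mrps11 were -0.04 ± 0.14 and -0.14 ± 0.15 (SE). Both were lower without overlap. Some partners had larger differences than the member they face: Mrpl27 (-0.16) starts 48 bases from Eme1, a DNA repair gene at -1.28 ± 0.49 (SE), and Mrpl51 (-0.24) starts 614 bases from Ncapd2, a condensin subunit at -1.20 ± 0.40 (SE). Mrpl43 (-0.16), whose promoter is shown above, starts 116 bases from Twnk, the mitochondrial DNA helicase, at 0.11 ± 0.21 (SE). Without EnhDel replicate 2 Eme1 was at -0.62, Ncapd2 at -0.69 and Twnk at -0.12, and without control replicate 1 they were at -1.48, -1.42 and 0.09.

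Other genes of mitochondrial translation also lay close to the controls, and none of their lists had a gene past an adjusted p of 0.05 in limma. Mitochondrial ribosomal proteins under other names (7 of 7 tested) had a median log2 difference of -0.06. The 13 translation factors, which load and release the ribosome, had a median of 0.03, and 25 tested factors of ribosome assembly and rRNA modification of 0.01. The 19 tested mitochondrial aminoacyl-tRNA synthetases and amidotransferase subunits, which charge transfer RNAs, had a median of 0.002, and 10 genes of mitochondrial DNA and transcription of 0.004. Without EnhDel replicate 2 these 5 medians were 0.03, 0.15, -0.01, 0.07 and 0.02, and without control replicate 1 they were -0.04, 0.03, 0.01, 0.03 and -0.07. In these 5 lists no gene had an unadjusted p under 0.05 in limma, where 11% of all genes tested did. Among their tested genes the smallest p belonged to Wars2, the mitochondrial tryptophanyl-tRNA synthetase, which read -0.25, -0.32, 0.04 and 0.15, a difference of 0.38 ± 0.15 (SE) with an adjusted p of 0.474 in limma. Its difference was 0.32 without EnhDel replicate 2 and 0.41 without control replicate 1.

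Of 9 regulators of mitochondrial genes, 2 had an unadjusted p under 0.05 in limma, both lower. By that rule 4.16% of all genes tested were lower and 6.83% higher. The median of the list was -0.12. Myc, a transcription factor of growing cells, read -2.44, -2.29, -3.32 and -3.40, a difference of -0.99 ± 0.16 (SE). Ppargc1a, a coactivator of mitochondrial biogenesis, read -2.77, -3.09, -3.82 and -3.82, a difference of -0.89 ± 0.18 (SE). Both EnhDel arrays lay well below the controls in each, and the adjusted p was 0.211 and 0.274 in limma. For both regulators the 2 EnhDel arrays gave nearly the same value, and without EnhDel replicate 2 Myc was at -0.96 and Ppargc1a at -0.89. Without control replicate 1 they were at -1.07 and -0.73. The median of the list was 0.007 without EnhDel replicate 2 and -0.13 without control replicate 1.

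The direction of the medians held under every normalization, while their size followed the scale. Median scaling moved the median of all genes from 0.06 to -0.12 and that of the 75 genes from -0.09 to -0.27, with 74 of 75 below 0, so that the gap between members and all genes was -0.15 in both. The gap was -0.10 with quantile normalization, -0.09 with cyclic loess, -0.05 in the authors' deposited log2 values and -0.49 with normexp, or -0.15 with normexp after the repair of 6 extreme local backgrounds. It was -0.24 without EnhDel replicate 1 and -0.04 without EnhDel replicate 2. These gaps rest on the brightest probe of a gene, except that of the deposited values, whose handling of probes is not known.

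**Figure D5:**
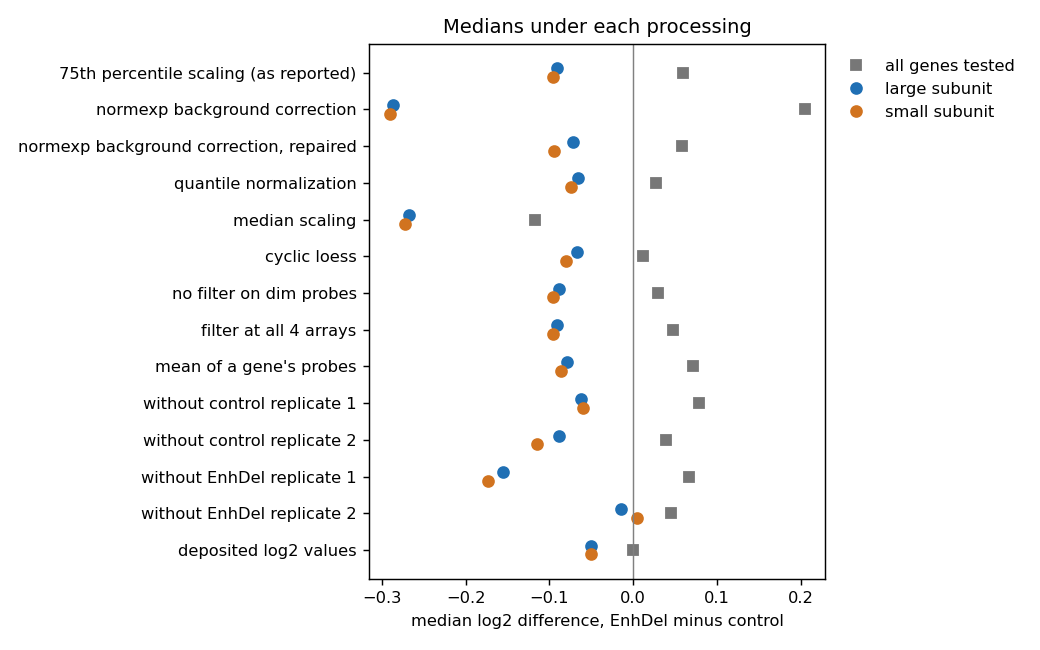
Median log2 difference between EnhDel and control (x axis) of the large subunit genes (blue), small subunit genes (orange) and all genes tested (grey squares) under each processing (rows). Large and small subunit medians lie within 0.03 of each other in every row, and both come closest to 0 without EnhDel replicate 2, at -0.01 and 0.005.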

How the data were processed

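RNA of 4 samples was measured on 4 arrays of 1 slide in 1 scan and 1 colour. The authors' scanner files, made with Agilent Feature Extraction 10.7.3.1 per the file headers, hold the intensity of 44397 spots per array, with probe positions on mm9. The authors also deposited a log2 table of 31597 rows; how it was made is not given in the sources used here. All of its columns have a median of 6.5, and over 19284 genes they correlated at 0.956 to 0.959 with the scanner values. Such a correlation across genes settles neither the scale nor the direction of group differences. Columns were matched to samples by their names, and the centring and the handling of a gene's probes are unknown. For Mrpl41 the deposited difference was 0.25, against 0.27 for the mean of its probes and -0.03 for the brightest.

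Outlier spots (126 to 162 per array) were left out. The log2 processed signal, already background-subtracted, was set relative to each array's 75th percentile, spots of a probe were averaged, 26581 probes were named through RefSeq accessions, and the brightest probe stood for a gene. A gene was tested if well above background on both arrays of a group. The lowest signals well above background were 12.2 to 14.4. Groups were compared in limma 3.58.1 (R 4.3.3) over all 19391 genes, without the replicate number as a block, with Benjamini-Hochberg adjustment at 0.05; the fit was tested on simulated data. An exact permutation test of 2 against 2 arrays cannot go below a two-sided p of 0.333 and was not run. The members and gene lists were chosen with earlier results of these data known. Named were up to 10 lower and 10 higher genes without overlap by smallest p, members of structural lists, members whose probes disagree, and, of pathway lists, up to 3 genes by p, here only where described. The lists of monocyte (9 tested, median -3.35), neutrophil (7, -1.11) and T cell (7, 1.05) markers were also measured, as log2 differences. So were those of NK cell (6, 0.50), erythroid (4, 1.95) and mast cell (3, 1.28) markers. Without EnhDel replicate 2 these medians were -3.74, -1.93, 1.03, 0.15, 2.24 and 0.16. Without control replicate 1 they were -2.83, -1.04, 1.05, 0.64, 1.54 and 1.10. All but the monocyte and erythroid lists held genes of both signs. A gene could be tested through 1 group alone. Klf1 (erythroid) was at -8.26 and -8.03 in the controls, and Gzmb (NK and mast cell) at -7.80 and -7.60. The filter favoured such differences. Alternatives were other background corrections, normalizations, filters, probe means, variance models, the block, the deposited values and leaving out each array. Cyclic loess, and normexp with 6 extreme local backgrounds of EnhDel replicate 1 set to the median, were chosen after seeing the data.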

Additional observations from a re-analysis of the deposited data

How the results depend on the processing

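No gene of the 75 passed an adjusted p of 0.05 in limma under any of the alternatives, although 26 of all genes did with median scaling, 3210 without EnhDel replicate 1, 93 without EnhDel replicate 2 and 3 without control replicate 2. With the replicate number as a block, 0 members passed; same-numbered samples did not deviate together (correlation -0.02), so the numbers do not pair the samples. The count lower without overlap, 24, was 52 with normexp (69.3%, against 23.3% of all genes) and 20 once its extreme local backgrounds were repaired (26.7% against 16.1%). It was 44 with median scaling (58.7% against 31.9%), 13 in the deposited log2 values (17.3% against 15.0%) and 27 to 59 with 1 array left out (36.0% to 78.7%, against 21.6% to 38.9%), where fewer values have to be apart. The large and small subunit medians were -0.29 and -0.29 with normexp, -0.27 and -0.27 with median scaling. With single arrays left out they ran from -0.16 to -0.01 and from -0.17 to 0.0049, and the gap between them from -0.0196 to 0.0255. With the extreme local backgrounds repaired, normexp gave -0.07 and -0.09. By unadjusted p under 0.05, 4 members were lower (5.33%, against 5.29% of all genes) and 1 was higher (1.33% against 4.64%) in the deposited values (Mrpl28, Mrps35, Mrpl33 and Mrps11 lower, Mrpl24 higher), whose rounding to 1 decimal leaves many genes without spread. With single arrays left out, 0 to 7 were lower (7 without EnhDel replicate 1, 9.33% against 13.2% of all genes) and 0 to 1 higher (Mrps6, without EnhDel replicate 2, 1.33% against 8.97%). These shares lay near or below those of all genes. Of 33 members named by the rule, 18 changed sign under at least 1 alternative, or 15 without counting median scaling, which lowers all genes alike, and the unrepaired normexp. Of these, 11 did so without EnhDel replicate 2, and none of the 18 was among the 9 named genes whose difference exceeded its SE. Those 9 were picked as lower without overlap, so leaving out an array could not turn their sign. Among all 75 members, 11 exceeded their SE. Mrps14 and Mrpl50, which exceeded it and were not named by the rule, did change sign, reaching 0.04 and 0.003. With 2 arrays per group the median SE of a member was 0.17 on the log2 scale, which limits how small a difference could be measured.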
